A study of Mus musculus with 4 samples.

Results

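The commitment of helper T cells to the Th1, Th2, Th17 and Tfh fates was examined at the level of 9 transcription factors, Tbx21, Eomes, Runx3, Stat4, Gata3, Stat6, Rora, Stat3 and Bcl6, in regulatory T cells induced in culture (iTreg cells) with or without added iron. The factors were chosen by name as regulators of these fates and found through their Ensembl identifiers. They make up 9 of the 47729 genes in the count table, and all 9 were among the 13732 genes with enough reads to be tested.

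The study grew CD4 T cells from the spleen of C57BL/6 mice under iTreg conditions and sequenced 2 RNA libraries of each group, made from extracted total RNA. Both groups received TGF-β at 5 ng/mL, IL-2 at 100 U/mL, and antibodies against IL-4 and IFN-γ at 5 µg/mL each, on cells stimulated through CD3 and CD28. The FeSO4 group was cultured with ferrous sulfate at 50 µM for 4 days, and the Mock group received PBS. Mice were 6 to 8 weeks old per the study's reporting summary, and the labels name no sort of the cells after culture. The study's methods describe the libraries as 2 pairs from 2 independent experiments, while neither labels nor methods tie a replicate number to an experiment or state how many animals were used. The antibodies neutralize the cytokines that normally drive Th1 and Th2 fates, which limits the cultures as a model of those fates.

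Helper T cell fates are each governed by a lineage-defining factor that acts together with a STAT protein, which is phosphorylated by Janus kinases bound to a cytokine receptor. T-bet, encoded by Tbx21, and STAT4 serve the Th1 fate, GATA3 and STAT6 the Th2 fate, RORα and STAT3 the Th17 fate, and BCL6 the Tfh fate, while Runx3 and Eomes act beside T-bet. Regulatory T cells can express several of these factors together with Foxp3, and T-bet and GATA3 are known to restrain each other.

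The libraries held 35183187 to 40859178 reads in genes, at which 3 reads correspond to 0.0717 to 0.0875 CPM (read counts scaled to the size of each library). Foxp3, the defining factor of regulatory T cells, was present at 586 and 693 CPM without added iron, compared with 375 and 471 CPM with FeSO4, which gave a log2 fold change of -0.60 with an SE of 0.09 (adjusted p = 0.000469). Of the other 3 regulatory T cell markers, Ikzf2 was also lower (-0.79, adjusted p = 0.0018), while Il2ra (0.02, adjusted p = 0.843) and Ctla4 (0.17, adjusted p = 0.244) were not called, and the 4 markers summed to 2172 and 2506 CPM in Mock, overlapping the 2027 and 2246 CPM of FeSO4. The summed level of 6 T cell markers was 1961 to 2061 CPM in Mock and 2382 to 2430 CPM in FeSO4. Myeloid markers summed to 4.53 CPM in Mock replicate 1 and to at most 0.861 CPM in the other libraries.

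Of the 9 factors, Tbx21 was higher in FeSO4, Gata3 was lower, and the other 7 did not pass the threshold of an adjusted p of 0.05 in the quasi-likelihood test of edgeR with Benjamini-Hochberg adjustment. Among all tested genes, 10.6% were called higher and 8.89% lower, so 1 call in each direction among 9 genes is near the background. The median log2 fold change of the 9 factors was -0.11, against -0.00046 over all tested genes, and 8 of the 9 estimates were below 0. At the threshold used by the study, which asks for a raw p under 0.05 and a change of 0.5 or more in either direction on the log2 scale, Tbx21 passed as higher (background 4.47%) and none of the 9 passed as lower (background 5.58%). The 2 libraries of one group did not overlap those of the other for 4 of the 9 factors, Tbx21, Gata3, Runx3 and Stat6, which is a smaller share than the 59.5% found over all tested genes. In RNA from whole cultures, a change in the number of cells that express a factor and a change in the RNA per cell cannot be told apart.

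**Figure D1:**
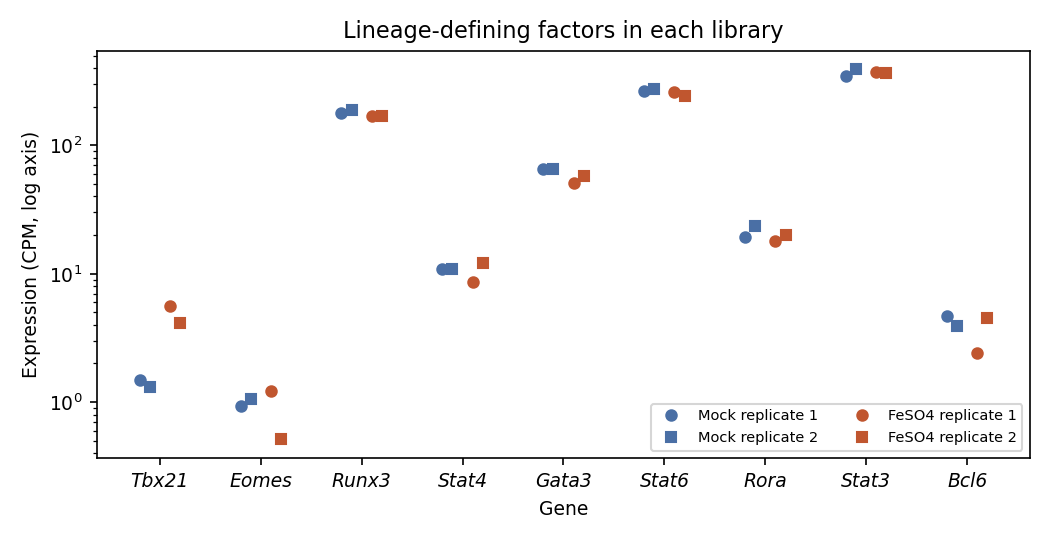
Expression of the 9 factors in CPM on a log axis, with 1 point per library, Mock in blue and FeSO4 in orange, circles for replicate 1 and squares for replicate 2. Both FeSO4 libraries lay above both Mock libraries for Tbx21, and the factors spanned from 0.513 CPM for Eomes to 392 CPM for Stat3.

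The bases upstream of Tbx21 and Gata3 are shown because these are the factors that were called, in opposite directions. They are the 250 bases before the transcription start in RefSeq annotation of GRCm38.p6, on the minus strand in both cases, at chr11:97115332-97115581 for Tbx21 and chr2:9878601-9878850 for Gata3, with every GGGCGG, the GC box bound by Sp1-type factors, in capitals (searched on both strands). The start used for Gata3 lies 9353 bases inside the outer RefSeq boundary of the gene, so it is not the outermost one. The capitals in Tbx21 mark 3 overlapping copies.

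Tbx21: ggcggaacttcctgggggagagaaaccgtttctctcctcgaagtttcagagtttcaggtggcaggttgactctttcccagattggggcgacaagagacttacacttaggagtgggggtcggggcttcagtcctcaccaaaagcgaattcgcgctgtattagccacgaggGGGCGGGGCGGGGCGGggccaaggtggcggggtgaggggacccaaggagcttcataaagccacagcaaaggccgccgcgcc

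Gata3: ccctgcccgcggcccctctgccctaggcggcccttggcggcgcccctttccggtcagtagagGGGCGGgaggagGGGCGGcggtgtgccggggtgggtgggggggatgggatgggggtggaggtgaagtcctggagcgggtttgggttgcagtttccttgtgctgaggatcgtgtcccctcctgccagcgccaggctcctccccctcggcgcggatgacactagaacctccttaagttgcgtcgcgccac

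The 2 sequences had a GC content of 60.8% and 70%, and GGGCGG occurred 3 times upstream of Tbx21 and 2 times upstream of Gata3, the letters having been chosen after the sequences were seen. It was present in 32.74% of the 32851 promoters of the same length, and in 5 of 12 belonging to the 9 factors. Motifs of the factors themselves were also searched on both strands. The T-box motif AGGTGTGA (1.12% of all promoters), the GATA motif AGATAA (9.988%) and TTC and GAA separated by 4 bases, as bound by STAT6 (5.854%), occurred in none of the 12 promoters. TTC and GAA separated by 3 bases, the spacing favoured by most STAT proteins, occurred in 7.02% of all promoters and in 2 of the 12, both of Bcl6. The Runx motif ACCACA occurred in 14.05% of all promoters and upstream of Runx3 and Stat6, and ACGTG, the core of the hypoxia response element, in 16.57% of all promoters and upstream of Bcl6, Rora and Stat6. These matches describe letters in a short window and do not identify binding.

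For the Th1 fate, the factor Tbx21 rose while its partners gave no call. Tbx21 (ENSMUSG00000001444, chr11:97098007-97115331) had 60 and 55 reads in the Mock libraries and 191 and 153 in the FeSO4 libraries. These correspond to 1.48 and 1.31 CPM in the Mock libraries against 5.57 and 4.13 CPM in the FeSO4 libraries. The groups did not overlap, and the log2 fold change was 1.79 ± 0.28 (SE, n = 2 per group, adjusted p = 0.000498), or 3.47-fold. It kept its call in all 12 alternative analyses, between 1.57 and 1.998.

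T-bet is also expressed by natural killer and CD8 T cells, and markers of those cells were read beside it. Of 5 natural killer markers, Klrk1 (log2 fold change 1.58) and Klrd1 (1.94) were called higher, Prf1, which encodes perforin, was not called (-0.49, adjusted p = 0.0768), and Ncr1 and Klrb1c, the defining receptors, had 0 reads in every library. The list summed to 8.91 and 9.35 CPM without added iron, compared with 10.04 and 11.83 CPM with FeSO4. Both CD8 genes together gave 9.80 and 9.04 CPM in the Mock libraries against 9.95 and 11.0 CPM in the FeSO4 libraries. The part of such cells in the Tbx21 level was not tested beyond these values.

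Eomes, the T-box relative of Tbx21 (ENSMUSG00000032446, chr9:118478186-118486132), had 38 and 44 reads in Mock and 42 and 19 in FeSO4, or 0.936 and 1.05 CPM against 1.23 and 0.513 CPM. The FeSO4 libraries held both the highest and the lowest value, and the log2 fold change of -0.20 ± 0.51 did not pass (adjusted p = 0.832). The sign depended on which FeSO4 library was kept, from -0.95 without replicate 1 to 0.30 without replicate 2. Its SE was the largest among the 9 factors, and the parts of depth and of the spread between libraries in it were not tested.

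Runx3, a Runt-domain factor that cooperates with T-bet at the Ifng gene (ENSMUSG00000070691, chr4:135120645-135177990), was abundant, at 177 and 187 CPM without added iron, compared with 169 and 168 CPM with FeSO4. Both FeSO4 libraries lay below both Mock libraries, by a log2 fold change of -0.11 ± 0.06 that did not pass (adjusted p = 0.254). Stat4, which carries the IL-12 signal (ENSMUSG00000062939, chr1:51987106-52107189), was at 10.8 and 10.9 CPM in the Mock libraries against 8.58 and 12.1 CPM in the FeSO4 libraries. The Mock values lay between the FeSO4 values, and the log2 fold change was -0.07 ± 0.17 (adjusted p = 0.807).

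For the Th2 fate, Gata3 fell by a small amount. Gata3, the zinc finger factor of Th2 cells that is also needed in regulatory T cells (ENSMUSG00000015619, chr2:9857078-9887953), had 2676 and 2720 reads in Mock and 1739 and 2150 in FeSO4. The levels were 65.9 and 65.01 CPM without added iron, compared with 50.7 and 58.1 CPM with FeSO4. Both FeSO4 libraries were lower, with a wider gap between them than between the Mock libraries, and the log2 fold change was -0.27 ± 0.09 (adjusted p = 0.039). This call was lost without Mock replicate 1 (log2 fold change -0.26, adjusted p = 0.0914) or Mock replicate 2 (-0.27, adjusted p = 0.0885), where the size was nearly the same. It was also lost without FeSO4 replicate 1, where the log2 fold change shrank to -0.17 (adjusted p = 0.396), and was kept without FeSO4 replicate 2. Gata3 shares 155 exon bases with Gm13256 on the other strand and 77 with 9230102O04Rik on its own strand, so its count may include or lose reads of those genes.

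Stat6, which carries the IL-4 signal (ENSMUSG00000002147, chr10:127642955-127660987), was at 264 and 276 CPM in the Mock libraries against 261 and 244 CPM in the FeSO4 libraries. The FeSO4 libraries were the lower ones, with a log2 fold change of -0.09 ± 0.06 that did not pass (adjusted p = 0.333). It shares 40 exon bases with Nab2 on the other strand.

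The factors of the Th17 and Tfh fates gave no call. Rora, the retinoid-related orphan receptor (ENSMUSG00000032238, chr9:68653404-69388246), was at 19.4 and 23.5 CPM without added iron, compared with 18.0 and 20.2 CPM with FeSO4, overlapping between groups (log2 fold change -0.17 ± 0.12, adjusted p = 0.372). Stat3, which carries the IL-6, IL-21 and IL-23 signals (ENSMUSG00000004040, chr11:100886806-100939594), was at 350 and 392 CPM in the Mock libraries against 370 and 366 CPM in the FeSO4 libraries. Both FeSO4 values of Stat3 lay between the Mock values (log2 fold change -0.01 ± 0.07, adjusted p = 0.939). Bcl6, the transcriptional repressor of follicular helper cells (ENSMUSG00000022508, chr16:23965050-23988866), was at 4.73 and 3.92 CPM without added iron, compared with 2.39 and 4.54 CPM with FeSO4. FeSO4 replicate 1 alone was low, and the log2 fold change of Bcl6 was -0.32 ± 0.29 (adjusted p = 0.486).

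**Figure D2:**
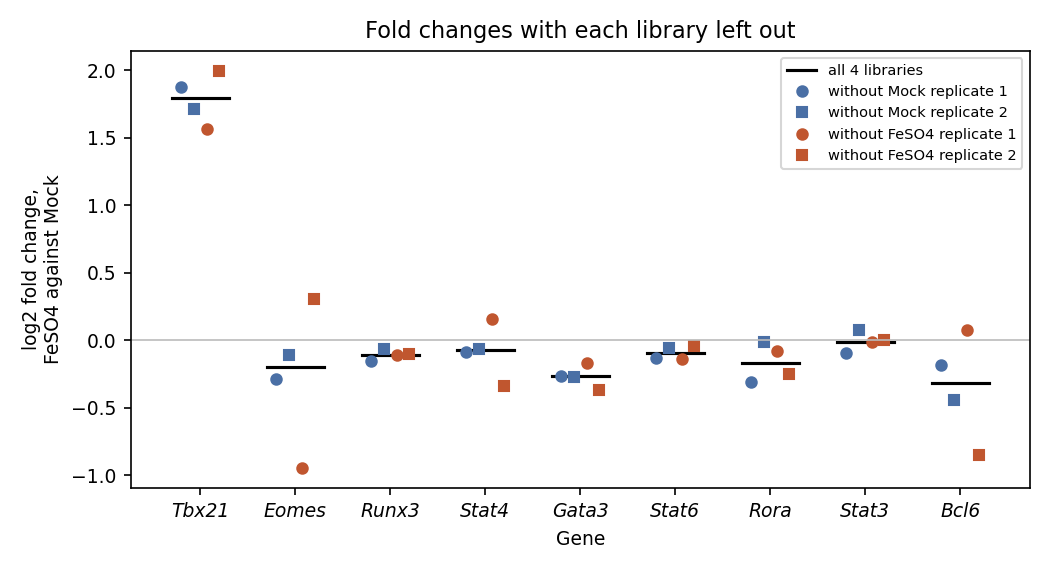
The log2 fold change of each factor, FeSO4 against Mock, with all 4 libraries (black line) and with each library left out in turn (points). Tbx21 stayed between 1.57 and 1.998, Gata3 stayed below 0, and Eomes, Stat4, Stat3 and Bcl6 crossed 0.

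Per kilobase of exon, the order of the factors in Mock was Stat6 (61.2 CPM per kb), Stat3 (38.9), Runx3 (36.4), Gata3 (16.5), Stat4 (3.46), Rora (1.64), Bcl6 (0.645), Tbx21 (0.561) and Eomes (0.239). Of the neighbours in this order, Stat3 and Runx3 overlapped between libraries, as did Bcl6 and Tbx21, and the others did not. In FeSO4, Tbx21 (1.95 CPM per kb) stood above Rora (1.46) and Bcl6 (0.517) with no overlap, so it moved up by 2 places, while the other 8 factors kept their order. The level of Tbx21 in FeSO4 was still below that of Gata3 (13.7 CPM per kb).

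Because T-bet and GATA3 antagonize each other, their balance was read within each library. Per kilobase of exon, the level of Gata3 exceeded that of Tbx21 by 27.9-fold and 30.9-fold in the Mock libraries and by 5.69-fold and 8.79-fold in the FeSO4 libraries. The log2 ratio of Tbx21 to Gata3 per kilobase was -4.80 and -4.95 in Mock and -2.51 and -3.14 in FeSO4, higher by 2.05 with no overlap (SD 0.11 in Mock and 0.44 in FeSO4, n = 2 per group). The exact two-sided permutation test gave p = 0.333, the smallest value that 2 libraries against 2 allow. Most of this shift came from Tbx21, since the log2 fold change of Gata3 was -0.27.

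The STAT members were set beside Stat2, Stat5a and Stat5b per kilobase of exon, as shares of the summed level of these 6 genes. Stat6 made up 32.6% and 32.6% of the sum in Mock and 34.5% and 32.4% in FeSO4, and Stat4 made up 1.88% and 1.81% against 1.59% and 2.24%, both overlapping between groups. Stat3 made up 20% and 21.4% in Mock and 22.6% and 22.4% in FeSO4, with no overlap, while its level in CPM overlapped. Stat5a made up 11.8% and 11.1% in Mock and 9.40% and 9.01% in FeSO4, and Stat5b 26.2% and 26.4% against 23.7% and 25.02%, with the FeSO4 libraries lower for both. Stat5a and Stat5b, which carry the IL-2 signal, had log2 fold changes of -0.45 (adjusted p = 0.00026) and -0.24 (adjusted p = 0.0141). Stat5a shares 72 exon bases with Stat3 on the other strand. Stat2 was not called (0.14, adjusted p = 0.261).

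**Figure D3:**
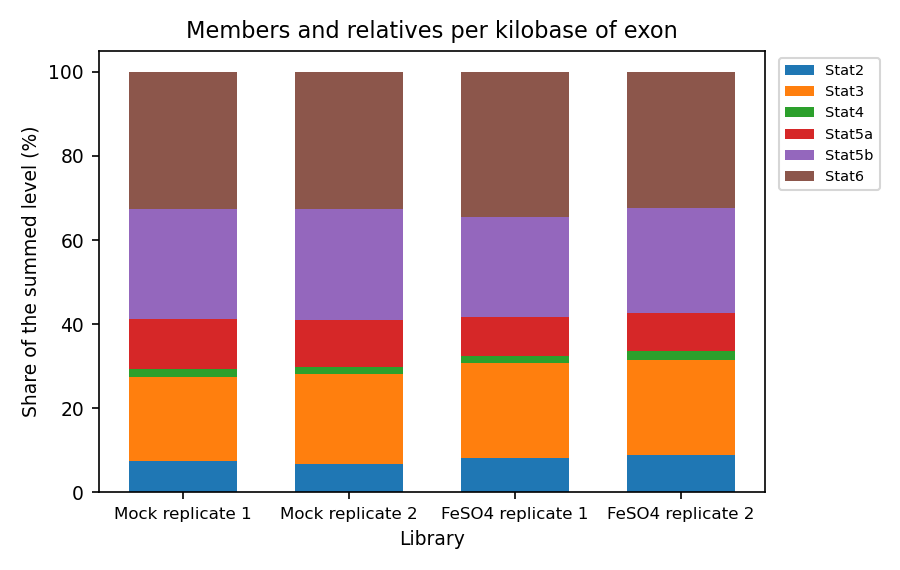
Share of each gene in the summed level of 6 STAT genes per kilobase of exon, in percent, with 1 bar per library. Stat5a took 11.1% to 11.8% in Mock and 9.01% to 9.40% in FeSO4, while the shares of Stat4 and Stat6 overlapped between groups.

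Relatives of the other factors were also read. Runx1 was lower in FeSO4 (-0.27, adjusted p = 0.022), and Runx2 was not called (0.26, adjusted p = 0.476). Gata1, known for its role in erythroid cells, was at 89.2 and 94.2 CPM in the Mock libraries against 68.0 and 66.4 CPM in the FeSO4 libraries (-0.45, adjusted p = 0.000701). Per kilobase Gata1 stood above Gata3 in both groups, at 37.6 against 16.5 in Mock and 27.6 against 13.7 in FeSO4. Of the 2 erythroid markers, Hba-a1 was at 24.5 and 19.6 CPM without added iron and at 37.5 and 32.5 CPM with FeSO4, the other direction. Hbb-b1 had 12 reads in Mock replicate 1 and 0 in every other library. The part of erythroid cells in the Gata1 level was not tested. Without Mock replicate 2 or FeSO4 replicate 1, 2 of the relatives were called lower, against 4 with all libraries. Gata2, Rorb and Bcl6b had too few reads to be tested, with at most 5 in a library.

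**Figure D4:**
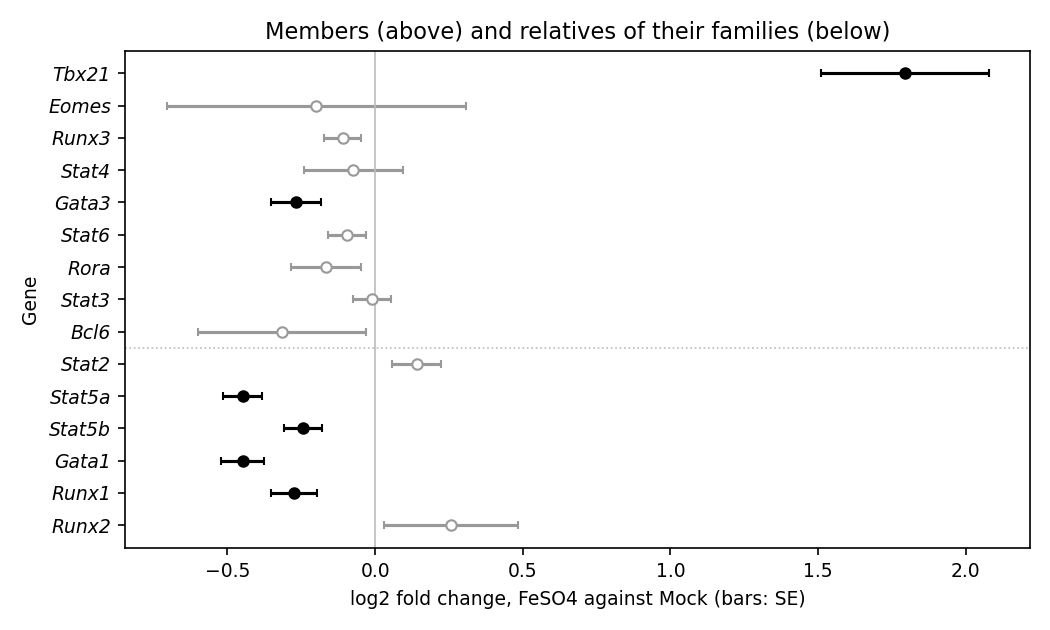
The log2 fold change of FeSO4 against Mock, with its SE, for the 9 factors (above the dotted line) and 6 relatives (below). Filled points passed the adjusted p of 0.05: Tbx21 above 0, and Gata3, Stat5a, Stat5b, Gata1 and Runx1 below 0.

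Genes that act with or downstream of the factors were read in 7 lists of 110 genes in all, of which 91 were tested. Of these, 29 (31.87%) were called higher and 16 (17.58%) lower, with a median log2 fold change of 0.07. The share of higher calls stood above the background of 10.6% and that of lower calls above 8.89%, while the counts of the 9 factors themselves were near it. The lists were chosen with earlier results of these data known, so the shares are a description and not a test of the lists. With library size alone as the scaling, which moved the median of all genes by -0.0654, 21 list genes were called higher and 23 lower.

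Of the Th1 program, 7 of 15 tested genes rose and 1 fell, with a median log2 fold change of 0.68. Ifng, the main Th1 cytokine and a target of T-bet, was at 2.61 and 3.32 CPM without added iron, compared with 11.2 and 8.08 CPM with FeSO4 (1.69, adjusted p = 9.4e-05). The chemokines Ccl3 (1.47), Ccl4 (1.43) and Ccl5 (1.20), the cytotoxic Gzmb (0.99) and Fasl (0.91), and the IL-18 receptor chain Il18rap (0.68) also rose, while Tnf fell by 0.86 on the log2 scale. The receptors Cxcr3 (0.53, adjusted p = 0.427) and Il12rb2 (0.36, adjusted p = 0.228), further known targets of T-bet, did not pass. Ccl3 differed widely between libraries, with 1.995 and 0.669 CPM in the Mock group against 4.93 and 2.48 CPM in the FeSO4 group. Its log2 fold change was 2.45 without Mock replicate 1, 0.89 without Mock replicate 2 (adjusted p = 0.165) and 0.90 without FeSO4 replicate 1 (adjusted p = 0.268). Without Mock replicate 2 or FeSO4 replicate 1, the number of higher calls in this list was 2. Fasl passed in 5 of 12 alternatives and lost its call with each of the 4 libraries left out, and Gzmb passed in 6 of 12 and kept its call only without Mock replicate 1 among these. Neither passed in DESeq2 (adjusted p = 0.0596 for Fasl and 0.0572 for Gzmb).

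Of the Th2 program, 5 of 9 tested genes rose and 1 fell, although Gata3 was lower. Il4 was at 0.640 and 1.03 CPM in the Mock libraries against 3.30 and 4.78 CPM in the FeSO4 libraries (2.27, adjusted p = 0.000362), and shares 179 exon bases with Kif3a on the other strand. Il13 was at 13.7 and 11.5 CPM without added iron, compared with 58.4 and 27.0 CPM with FeSO4 (1.76, adjusted p = 0.000125, and 1.11 without FeSO4 replicate 1). The cytokine Il24 (1.49) and the chemokine receptors Ccr4 (0.64) and Ccr8 (0.57), which regulatory T cells also carry, rose, and the repressor Gfi1 fell by 2.02 on the log2 scale. Gfi1 lost its call without Mock replicate 1 (adjusted p = 0.148) or FeSO4 replicate 1 (0.0986). Il5 had 0 reads in every library.

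Of the Th17 program, 3 of 6 tested genes rose, Il1r1 (2.24), Il17a (1.88) and Ahr (0.51). Il17a stood at 0.246 and 0.167 CPM in the Mock libraries against 0.642 and 0.891 CPM in the FeSO4 libraries, and its call (adjusted p = 0.0498) was lost in every alternative that gave it a value. Il1r1 was likewise near the threshold (adjusted p = 0.0476) and passed in 2 of 11 alternatives. Ahr lost its call without FeSO4 replicate 1 (0.31, adjusted p = 0.0511), and the number of higher calls in this list was then 0, and 1 with any other library left out. Of the Tfh program, 4 of 13 rose, the costimulatory receptor Icos (0.61), the signalling adaptor Sh2d1a (0.50), the inhibitory receptor Btla (0.48) and the transcription factor Tcf7 (0.26), and Lef1, a relative of Tcf7, fell by 0.36. Cxcr5, the receptor that brings follicular helper cells into B cell zones, was not called (-0.67, adjusted p = 0.641).

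**Figure D5:**
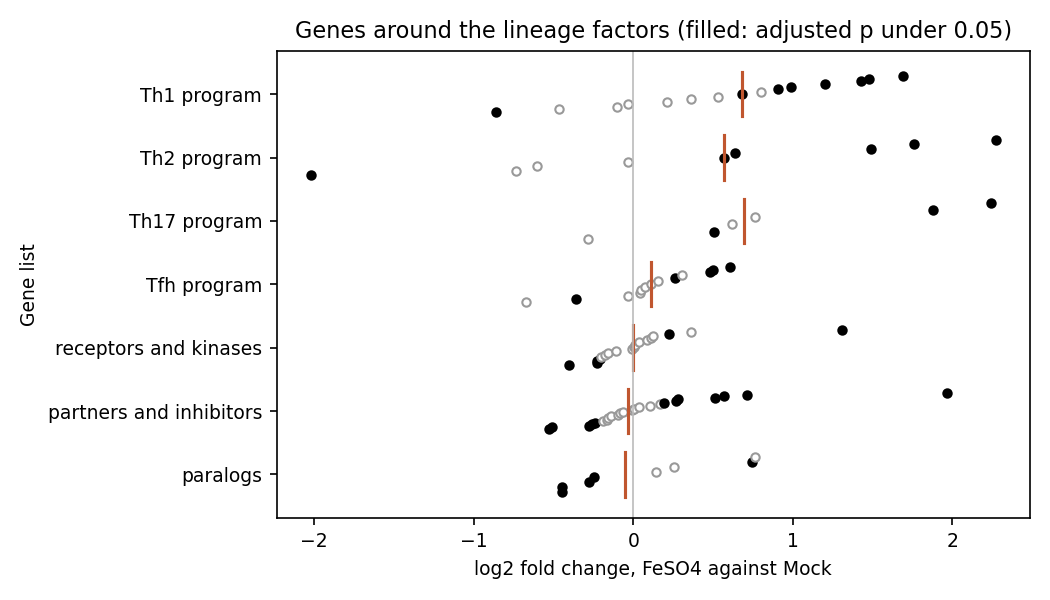
The log2 fold change of each tested gene in the 7 lists, with filled points for an adjusted p under 0.05 and an orange line at the list's median. The medians were 0.68 for the Th1 program, 0.57 for the Th2 program, 0.69 for the Th17 program and 0.11 for the Tfh program, and near 0 for the other lists.

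Among cytokine receptors and Janus kinases, which act upstream of the STAT members, 2 of 18 rose (11.11%, near the background of 10.6%) and 4 fell (22.22%, against 8.89%), with a median of -0.0011. Il12rb1, the receptor chain shared by IL-12 and IL-23, was at 18.0 and 19.5 CPM without added iron, compared with 52.6 and 40.1 CPM with FeSO4 (1.31, adjusted p = 3e-06). The kinase Jak3 rose by 0.23. Both chains of the IL-6 receptor, Il6st (-0.41) and Il6ra (-0.23), the IL-10 receptor chain Il10ra (-0.23) and the kinase Jak1 (-0.21) fell. Il4ra, the receptor upstream of Stat6, was not called (0.11, adjusted p = 0.243). Without Mock replicate 2 or FeSO4 replicate 1, no gene of this list was called lower.

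Among partners, corepressors and inhibitors of the factors, 7 of 24 rose and 5 fell, with a median of -0.04. Prdm1, which encodes Blimp-1, the antagonist of Bcl6, was at 0.690 and 1.03 CPM in the Mock libraries against 2.68 and 4.05 CPM in the FeSO4 libraries (1.97, adjusted p = 0.00151), while Bcl6 itself was not called. Batf (0.71), Irf4 (0.57) and Maf (0.51), which act with STAT3 and other factors in several helper fates, rose. The phosphatases Ptpn6 (0.28) and Ptpn2 (0.27) and the STAT feedback inhibitor Socs2 (0.19) also rose. Socs2 was near the threshold (adjusted p = 0.0496). It lost its call with the size factors of DESeq2, the upper quartile or library size alone as the scaling. Ptpn2 lost its call with library size alone. The inhibitor of E proteins Id3 (-0.53), Socs5 (-0.51), the corepressor Ncor1 (-0.26) and Bhlhe40 (-0.24) were among those that fell. With Mock replicate 2 or either FeSO4 library left out, 2 or 3 genes of this list were called lower. Cbfb, the shared partner of the Runx proteins, was not called (0.10, adjusted p = 0.252). Maf shares 440 exon bases with Gm15655 on the other strand.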

How the data were processed

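The authors deposited raw counts of reads per Ensembl gene for 4 libraries (2 Mock, 2 FeSO4), with 35183187 to 40859178 reads in genes. Per the labels, Trim Galore 0.6.7, STAR 2.7.9a, featureCounts and mm10 were used, while the study's methods name mm9, and strand use in counting is not given in the sources used here. The 5 rows of reads assigned to no gene (15.87% to 17.32% of reads) were left out.

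Counts were tested with the quasi-likelihood F-test of edgeR 4.0.16 (R 4.3.3, TMM factors, default expression filter, no block), comparing FeSO4 with Mock, and p-values were adjusted by the Benjamini-Hochberg method across 13732 genes, which held 99.95% of counts. DESeq2 1.42.0, limma-voom 3.58.1, other scalings, filters, a replicate block and leaving out each library were alternatives. CPM used TMM-scaled library sizes, and levels per kilobase used the union of exons in GENCODE vM1, whose build is NCBIM37. That annotation also gave exon overlaps. Coordinates and promoters came from RefSeq on GRCm38.p6.

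On simulated data of 13732 genes, 53 of 95 genes changed by 0.5 on the log2 scale and 78 of 99 changed by 1 were called, none in the wrong direction.

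All 9 factors, every called gene of a list, the genes with the smallest p of each list (at most 4) and the relatives detected were named by rule. Other genes (Cxcr3, Il12rb2, Cxcr5, Il5, Il4ra, Cbfb) were named for their known role after their values were seen. The factors and lists were chosen with earlier results of these data known. Some genes of the lists are not reported here by name. The marker list of gamma-delta T cells was not analysed here. B cell markers summed to 2.38 to 3.37 CPM.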

Additional observations from a re-analysis of the deposited data

How the results depend on the processing

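The higher call of Tbx21 was kept in all 12 alternatives. The lower call of Gata3 was lost without Mock replicate 1, Mock replicate 2 or FeSO4 replicate 1, so that the number of factors called lower ranged from 0 to 1 with a library left out, and it was 0 at the study's threshold. Of the list genes, 16 were called lower, against 4 at the study's threshold and 6 to 14 with a library left out (7 without Mock replicate 2 and 6 without FeSO4 replicate 1), and higher calls ranged from 20 to 29 over all settings. The cause was not tested, but leaving out a library leaves fewer samples. With a library left out, the log2 fold change ranged from -0.85 to 0.073 for Bcl6, from -0.95 to 0.30 for Eomes, from -0.10 to 0.077 for Stat3 and from -0.34 to 0.16 for Stat4. A lone library was then assumed to vary like the other group.

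With only 2 pairs, replicate numbers were not taken to pair the samples (correlation of same-numbered deviations 0.03 over 13732 genes and 0.22 over the 8521 that averaged 10 CPM or more), although the study's methods describe 2 pairs of samples. With a replicate block, 1 factor was called higher and 1 lower, and 27 list genes higher and 17 lower. The difference between groups in the log2 ratio of Tbx21 to Gata3, FeSO4 minus Mock, ranged from 1.74 to 2.37 with a library left out.

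Of the 45 list genes called, 21 kept their call in every alternative, 24 lost it in 1 or more, and none changed sign. Eomes had 19 to 44 reads in a library and Tbx21 55 to 191, and the part of depth in their errors was not tested.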
